A study of Mus musculus with 17 samples.

Results

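Non-irradiated primordial germ cells of E13.5 female mouse embryos (E, embryonic day) were compared with non-irradiated primordial germ cells of E11.5 embryos, across all genes. Each group held 3 RNA-seq libraries, 6 of the 17 in the series. Of the 23234 gene symbols that the E11.5 and E13.5 tables share, 11404 had an FPKM (fragments per kilobase of transcript per 1000000 mapped fragments) of 1 or more in at least 3 of these 6 libraries, and these were compared. The study exposed mouse primordial germ cells to ionizing radiation or left them untreated; none of these 6 libraries was irradiated. Strain, genotype, the sorting marker and the number of embryos pooled are not given in the labels. The labels name the E13.5 cells as female (sample code FC) and give no sex for the E11.5 cells.

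All 3 E11.5 libraries carried Y-linked transcripts. Eif2s3y, a Y-linked translation factor gene, stood at 90.5, 67.1 and 72 FPKM at E11.5 and 0, 0.111 and 0.0424 FPKM in the E13.5 females. The E11.5 libraries therefore held male cells, while the E13.5 libraries were female, so embryonic day and the sex make-up of the cells cannot be told apart. Day and table cannot be told apart either, since the days were deposited in separate FPKM tables. For that reason no p-value is given between the days. A gene was called higher or lower when the nearest libraries of the groups differed by at least 1 on the log2(FPKM + 1) scale, a 2-fold gap.

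Primordial germ cells are the embryonic precursors of oocytes and sperm. They reach the genital ridge expressing pluripotency factors such as OCT4 (Pou5f1), SOX2 and NANOG, and there take on a germ cell identity marked by DAZL and DDX4. In the ovary they then enter meiosis under retinoic acid and bone morphogenetic protein (BMP) signals, through STRA8, which switches on genes for the meiotic chromosome axis and for recombination. In the testis NODAL signalling is transiently raised, meiosis is held off and the cells stop dividing.

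The table of E13.5 values also holds male libraries, which allow a test within one table. Male libraries with the code MC are titled as irradiated and those with the code MIR as non-irradiated, so titles and codes disagree. Female minus male differences and list counts are therefore given against both sets, each with 3 libraries, from limma over all 12 E13.5 libraries. The E11.5 libraries drop out of such a difference, which describes the sexes at E13.5 only. As the labels give no sex for the E11.5 cells, it does not give a separate female or male change from E11.5. This difference shares the female libraries with the comparison of days and is no independent support for it.

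The tables give no read counts, so the depth behind each value is unknown. FPKM summed to 772968 to 919511 per E11.5 library and to 610460 to 616713 per E13.5 female library. Ribosomal protein genes held 33.0% to 34.8% of that sum at E11.5 and 25.8% to 26.5% at E13.5. The median FPKM of the tested genes was 11.4 to 11.8 at E11.5 and 12.3 to 12.5 at E13.5. The median SD of log2(FPKM + 1) was 0.205 among the E11.5 libraries and 0.0959 among the E13.5 females. Nothing in the labels says whether the libraries came from separate embryos or litters, so this spread may be technical.

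Differences between the days followed transcript length and base composition. The median difference was -0.45 in the quintile of shortest transcripts and 0.56 in that of the longest, and 0.42 in the quintile with the lowest GC content and -0.38 in that with the highest. Within the E13.5 table the female minus MC medians ran from -0.08 to 0.05 over the quintiles of length and from -0.10 to 0.08 over those of GC content, and the female minus MIR medians from 0.01 to 0.16 and from -0.06 to 0.20. Counts for the germ cell lists and most others are therefore also given after a lowess adjustment for length and GC content, which was possible for 10697 of the 11404 genes.

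**Figure D1:**
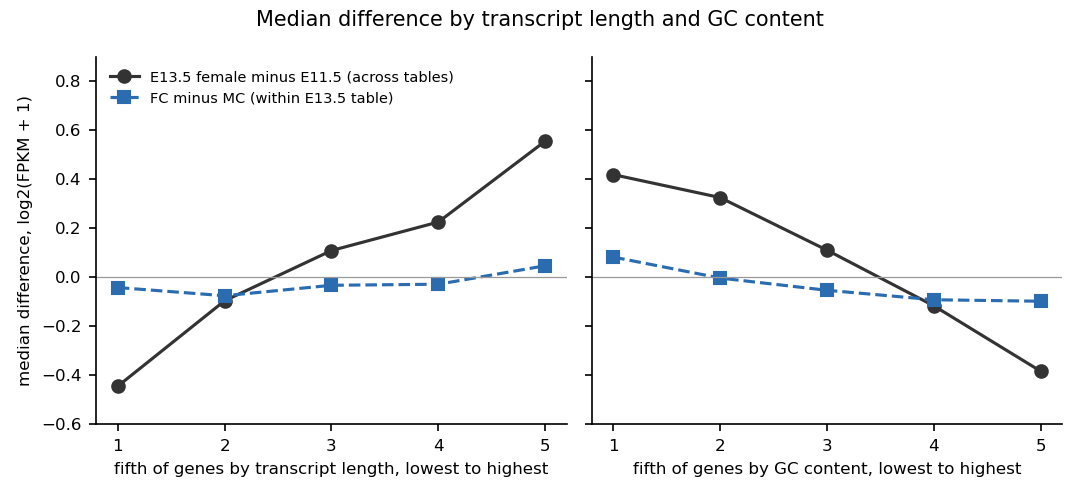
Median difference in log2(FPKM + 1) over quintiles of the tested genes by transcript length (left) and by GC content (right); circles are E13.5 female minus E11.5, 3 libraries each, and squares are female minus male MC within the E13.5 table. The circles climb from -0.45 to 0.56 with length and drop from 0.42 to -0.38 with GC content, while the squares stay between -0.10 and 0.08.

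Of the 11404 genes, 722 (6.33%) were called higher at E13.5 and 567 (4.97%) lower. The nearest libraries differed by 4-fold or more for 67 of the higher and 66 of the lower genes. The groups did not overlap for 70.7% of all genes, 39.7% higher and 31.0% lower at E13.5, so that alone sets no gene apart. The median difference over all genes was 0.09. Rescaling each library to a sum of 1000000 moved that median to 0.48 and the calls to 1668 higher and 263 lower, so levels are relative to the other genes of a library. Higher genes made up 56.0% of calls with FPKM as deposited, 46.0% after median scaling and 86.4% after rescaling to 1000000. After the adjustment for length and GC content 485 of 10697 genes were called higher and 381 lower, and 345 of the 722 and 248 of the 567 calls were kept.

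**Figure D2:**
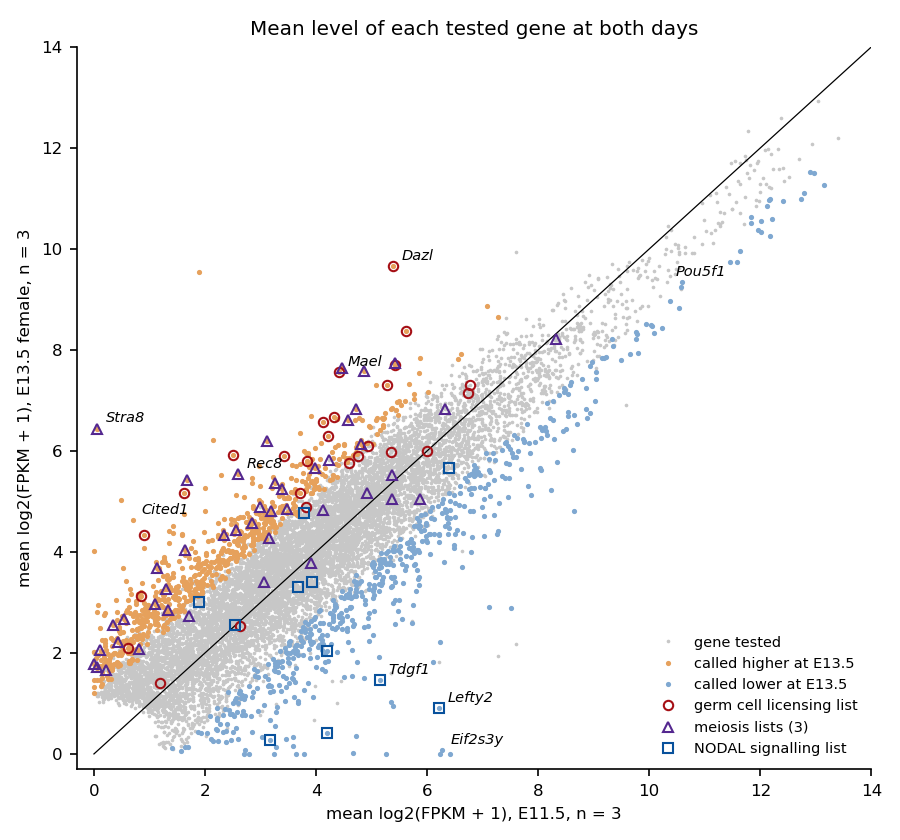
Mean log2(FPKM + 1) of each of the 11404 tested genes at E11.5 (horizontal) and in E13.5 females (vertical), 3 libraries each; the line marks equal levels, small coloured points are genes called higher (722) or lower (567), and open symbols are members of the germ cell licensing, meiosis and NODAL lists. Stra8 and Dazl lie far above the line, and Lefty2, Tdgf1 and Eif2s3y far below it.

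The widest gap in the upward direction belonged to Stra8, the gatekeeper of meiotic initiation. Stra8 was measured at 0.0945, 0.0392 and 0 FPKM at E11.5 and 53.7, 98.8 and 119 FPKM in the E13.5 females. Every E13.5 female library was thus far above every E11.5 library, and the difference was 6.38 ± 0.34 (SE, n = 3 and 3) on the log2(FPKM + 1) scale. Within the E13.5 table Stra8 averaged 0.706 ± 0.377 FPKM in MC (SD, n = 3). The female minus male difference in Stra8 was 5.70 ± 0.36 against MC (limma adjusted p = 6.64e-07) and 6.10 against MIR (limma adjusted p = 1.59e-07). In that test 2070 of 12850 genes (16.1%) were higher in FC than in MC and 2419 (18.8%) were lower, and against MIR 3776 (29.4%) were higher and 4052 (31.5%) lower.

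The list of meiosis entry genes had 9 tested members, of which 5 were called higher and none lower, with a median difference of 1.69 beside 0.09 for all genes. After adjustment 6 were called higher, with a median of 1.65. Between female and male cells there were 6 higher and 0 lower in FC against MC, and 8 higher and 1 lower against MIR, of 9 tested. The RNA helicase gene Ythdc2, needed for the switch from mitosis to meiosis, stood at 4.76, 3.55 and 3.96 FPKM at E11.5 and 18.6, 18.8 and 20.5 FPKM in the E13.5 females. Its groups did not overlap, and the difference was 2.003 ± 0.11. Rbm46, an RNA-binding factor of early meiosis, had values of 17.6, 11.8 and 15.2 FPKM at E11.5 and 47.5, 48.6 and 53.5 FPKM in the E13.5 females. Rbm46 was higher by 1.69 ± 0.16. Zglp1, a transcriptional regulator of the oogenic programme downstream of BMP, stood at 5.06, 4.38 and 14.5 FPKM at E11.5 and 29.2, 30.2 and 26.3 FPKM in the E13.5 females. Its groups did not overlap, but E11.5 replicate 3 was high and the nearest libraries were 0.81 apart, under the threshold, while after adjustment for length and GC content they were 1.84 apart and Zglp1 was called. The female minus male difference in Zglp1 was 1.40 ± 0.17 against MC (limma adjusted p = 8.76e-05) and 2.33 against MIR (limma adjusted p = 8.07e-07).

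Genes of the meiotic chromosome axis, cohesin and synaptonemal complex were higher at E13.5 in 11 of 15 tested members, with none lower and a median of 1.87; 12 were called after adjustment, with a median of 1.90. Between female and male cells there were 10 higher and 0 lower in FC against MC, and 15 higher and 0 lower against MIR, of 15 tested. Rec8, the meiosis-specific cohesin kleisin, was found at 4.57, 5.93 and 4.68 FPKM at E11.5 and 34.1, 51.1 and 54.1 FPKM in the E13.5 females. The Rec8 groups were well apart, by 2.95 ± 0.23, and the female minus male difference was 3.76 ± 0.19 against MC (limma adjusted p = 7.38e-08) and 3.06 against MIR (limma adjusted p = 2.19e-07). The meiotic cohesin subunit gene Smc1b stood at 26.7, 15.6 and 22.2 FPKM at E11.5 and 154, 205 and 251.4 FPKM in the E13.5 females, a difference of 3.19 ± 0.30. Rad21l, another meiotic kleisin, was listed at 0 in each E11.5 library and was measured at 1.97, 2.47 and 3.01 FPKM at E13.5.

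Sycp3 encodes the lateral element of the synaptonemal complex and Sycp1 its transverse filament. Sycp3 stood at 45.5, 14.3 and 33.6 FPKM at E11.5 and 156, 192 and 232 FPKM in the E13.5 females, a difference of 2.72 ± 0.51. E11.5 replicate 2 was the lowest library and the groups did not overlap. Sycp1 had values of 3.49, 0.955 and 2.76 FPKM at E11.5 and 20.6, 49.5 and 72 FPKM in the E13.5 females, and it varied more among the E13.5 libraries than Sycp3 did. The central element gene Tex12 stood at 8.59, 4.16 and 12.2 FPKM at E11.5 and 56.6, 74.1 and 88.9 FPKM in the E13.5 females. In contrast the central element gene Syce2 was already at 289.5, 311 and 357 FPKM at E11.5 and at 301, 305 and 286 FPKM at E13.5, with overlapping groups. Trip13, the ATPase that remodels axis HORMA proteins, also overlapped, at 36, 38.3 and 47.1 FPKM at E11.5 and 45.8, 44.5 and 43.9 FPKM in the E13.5 females.

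Of the genes for meiotic recombination and telomere attachment 12 of 21 tested members were called higher and none lower, with a median of 1.79. After adjustment 10 of 20 were higher, with a median of 1.46. Between female and male cells there were 9 higher and 0 lower in FC against MC, and 20 higher and 0 lower against MIR, of 23 tested. Spo11, which makes the meiotic double-strand breaks, was found at 1.44, 1.12 and 1.89 FPKM at E11.5 and 8.5, 7.89 and 9.64 FPKM in the E13.5 females. The meiotic recombinase gene Dmc1 stood at 1.78, 2.32 and 2.33 FPKM at E11.5 and 13.9, 15.8 and 16.7 FPKM in the E13.5 females, a difference of 2.39 ± 0.11 with the groups apart. Zcwpw1, a reader of the histone marks at recombination hotspots, was higher by 2.11 ± 0.26. Ccdc79, known as the telomere protein gene Terb1, was measured at 0.129, 0.321 and 0.361 FPKM at E11.5 and 4.09, 4.73 and 5.87 FPKM in the E13.5 females. Not every member was higher: the DMC1 partner gene Mnd1 overlapped between the days at 75.9, 52.5 and 125 FPKM at E11.5 and 104, 116 and 119.8 FPKM in the E13.5 females, and Psmc3ip, the gene of the MND1 partner HOP2, was lower without reaching the threshold, at 57.3, 61.4 and 54.4 FPKM at E11.5 and 29.9, 32.6 and 34.1 FPKM in the E13.5 females.

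Across the germ cell licensing list and the 3 meiosis lists 43 genes were called higher. Of these, 34 matched the RefSeq promoter table by symbol, which gives 250 bases before and 50 after each start on the GRCm38.p6 build. The E-box CACGTG, which is its own reverse complement, stood in 16 of the 34 (47.1%), against 12.4% of the 8571 tested genes with a promoter in the table. The E2F-type letters GCGGGAA stood on either strand in 9 of the 34 (26.5%) against 10.8% of all. The nuclear receptor hexamer AGGTCA stood on either strand in 4 of the 34 (11.8%) against 14.4%. No matches of different motifs overlapped in these 34 genes. Over all 539 higher genes with a promoter the E-box share was 12.8%, and over the 407 lower genes it was 12.8%. Members of these lists that were not called were not counted. The E-box share therefore cannot tell the genes called higher apart from germ cell and meiosis genes as such. These matches describe letters in a window and show no binding.

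The promoters of 5 of these genes are printed because Stra8 has the widest gap, Sycp3 and Hormad1 hold all 3 motifs, and Ddx4 and Mael are licensing genes with an E-box; they were picked after the motifs were counted. Capitals mark the motif matches, and each sequence runs 5′ to 3′ on the gene's strand. The windows are Stra8 at chr6:34920698-34920997 (plus strand), Sycp3 at chr10:88459337-88459636 (plus strand), Hormad1 at chr3:95559427-95559726 (plus strand), Ddx4 at chr13:112652261-112652560 (minus strand) and Mael at chr1:166238695-166238994 (minus strand).
Stra8: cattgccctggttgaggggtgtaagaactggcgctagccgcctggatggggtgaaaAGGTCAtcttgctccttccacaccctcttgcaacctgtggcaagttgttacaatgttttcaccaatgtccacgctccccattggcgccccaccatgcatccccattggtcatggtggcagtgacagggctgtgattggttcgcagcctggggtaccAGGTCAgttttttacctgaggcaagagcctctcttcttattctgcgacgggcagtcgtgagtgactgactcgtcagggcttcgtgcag
Sycp3: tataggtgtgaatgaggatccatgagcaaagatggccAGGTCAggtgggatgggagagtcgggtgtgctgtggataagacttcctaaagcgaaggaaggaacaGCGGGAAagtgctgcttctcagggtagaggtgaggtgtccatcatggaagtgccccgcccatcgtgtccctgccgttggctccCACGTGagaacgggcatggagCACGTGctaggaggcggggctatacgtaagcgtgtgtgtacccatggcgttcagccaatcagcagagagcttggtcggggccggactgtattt
Hormad1: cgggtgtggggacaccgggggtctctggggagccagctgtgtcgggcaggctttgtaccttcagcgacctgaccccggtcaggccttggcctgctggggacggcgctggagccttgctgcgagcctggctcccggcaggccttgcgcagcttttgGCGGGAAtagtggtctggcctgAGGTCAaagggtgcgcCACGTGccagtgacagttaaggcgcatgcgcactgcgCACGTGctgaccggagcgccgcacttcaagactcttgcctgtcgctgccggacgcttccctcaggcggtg
Ddx4: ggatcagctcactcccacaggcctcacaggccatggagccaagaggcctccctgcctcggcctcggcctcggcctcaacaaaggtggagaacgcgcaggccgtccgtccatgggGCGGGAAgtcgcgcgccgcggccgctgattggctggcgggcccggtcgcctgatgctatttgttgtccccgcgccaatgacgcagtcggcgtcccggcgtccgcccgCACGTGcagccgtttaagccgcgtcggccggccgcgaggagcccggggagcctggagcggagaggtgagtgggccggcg
Mael: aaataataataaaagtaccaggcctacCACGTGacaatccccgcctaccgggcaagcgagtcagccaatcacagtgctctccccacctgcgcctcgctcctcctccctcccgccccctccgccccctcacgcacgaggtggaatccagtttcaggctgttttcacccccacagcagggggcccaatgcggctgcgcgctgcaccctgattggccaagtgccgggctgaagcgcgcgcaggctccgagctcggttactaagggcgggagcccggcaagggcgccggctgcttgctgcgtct
The capitals in Stra8 are 2 hexamers AGGTCA and no E-box, while Sycp3 and Hormad1 each hold 2 E-boxes close to the start.

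Germ cell licensing genes, which mark the commitment of primordial germ cells to gametogenesis, were higher in 16 of 26 tested members and lower in none. Their median difference was 1.99, and it ran from 1.90 to 2.42 over the other scalings. After adjustment 14 were higher, with a median of 1.62. Between female and male cells there were 5 higher and 1 lower in FC against MC, and 23 higher and 1 lower against MIR, of 26 tested. Over all genes 16.1% were higher and 18.8% lower against MC, and 29.4% and 31.5% against MIR, so the licensing count against MC was near the general share. High counts against MIR were not particular to the licensing and meiosis lists. Core pluripotency had 12 of 16 members higher, germ cell specification 13 of 17, replication 22 of 30 and mitosis 21 of 30. Against MC these counts were 2, 4, 1 and 2. Glycolysis genes went the other way against MIR, with 3 higher and 11 lower of 20. Dazl, an RNA-binding translational regulator and the licensing factor itself, stood at 58.5, 12.4 and 92.6 FPKM at E11.5 and 751, 792 and 880.1 FPKM in the E13.5 females. All E13.5 libraries were above all E11.5 libraries, of which replicate 2 was the lowest, and the difference was 4.26 ± 0.85. The female minus male difference in Dazl was 0.09 ± 0.22 against MC (limma adjusted p = 0.791) and 1.16 against MIR (limma adjusted p = 0.000789). Ddx4, the germ cell RNA helicase VASA, had values of 60.8, 29.1 and 63.1 FPKM at E11.5 and 312, 331 and 349 FPKM in the E13.5 females, a difference of 2.75 ± 0.36. Replicate 2 was again the lowest at E11.5.

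Tex101, a germ cell surface glycoprotein gene, stood at 5.56, 3.75 and 4.76 FPKM at E11.5 and 45.9, 68.3 and 68.7 FPKM in the E13.5 females. Tex101 was higher by 3.43 ± 0.23, and its female minus male difference was 2.58 ± 0.25 against MC (limma adjusted p = 1.95e-05) and 3.14 against MIR (limma adjusted p = 1.65e-06). Brdt, the germline bromodomain protein gene, was found at 1.21, 0.52 and 0.954 FPKM at E11.5 and 17.4, 19.3 and 21.5 FPKM in the E13.5 females. The Brdt groups were apart by 3.44 ± 0.18 between the days, whereas its female minus male difference was -0.01 ± 0.23 against MC (limma adjusted p = 0.983) and 1.66 against MIR (limma adjusted p = 6.39e-05). Sohlh2, a helix-loop-helix factor of early oocytes, stood at 15.3, 15.9 and 18.4 FPKM at E11.5 and 86.3, 99 and 98.8 FPKM in the E13.5 females. Among members that were not called, Fkbp6, a piRNA pathway co-chaperone gene, was measured at 94.9, 92.1 and 144 FPKM at E11.5 and 154, 165 and 154 FPKM in the E13.5 females, and Tex19.1 at 102, 90.8 and 128 FPKM at E11.5 and 137, 149 and 136 FPKM in the E13.5 females.

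The piRNA pathway, which silences transposons in the germ line, had 8 of 19 tested members called higher and none lower, with a median of 1.16. After adjustment 7 were called higher. Without E11.5 replicate 3, 13 of the 19 were called higher. Mael, a component of the nuage, stood at 22.6, 14.1 and 26 FPKM at E11.5 and 168, 192 and 207 FPKM in the E13.5 females. The groups of Mael were apart by 3.15 ± 0.27, and the female minus male difference was 0.94 ± 0.28 against MC (limma adjusted p = 0.0197) and 2.24 against MIR (limma adjusted p = 3.23e-05). The Tudor domain gene Tdrd7 had values of 2.65, 1.96 and 1.7 FPKM at E11.5 and 24.8, 26.2 and 27.2 FPKM in the E13.5 females, a difference of 3.14 ± 0.13. Its relative Tdrd1 stood at 0.681, 0.607 and 1.13 FPKM at E11.5 and 6.8, 8.15 and 8.43 FPKM in the E13.5 females. Mov10l1, the helicase that starts piRNA production, was higher by 2.48 ± 0.27. Tdrd12 overlapped between the days, at 60.9, 45.5 and 88.8 FPKM at E11.5 and 65.5, 59.3 and 65.5 FPKM in the E13.5 females.

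**Figure D3:**
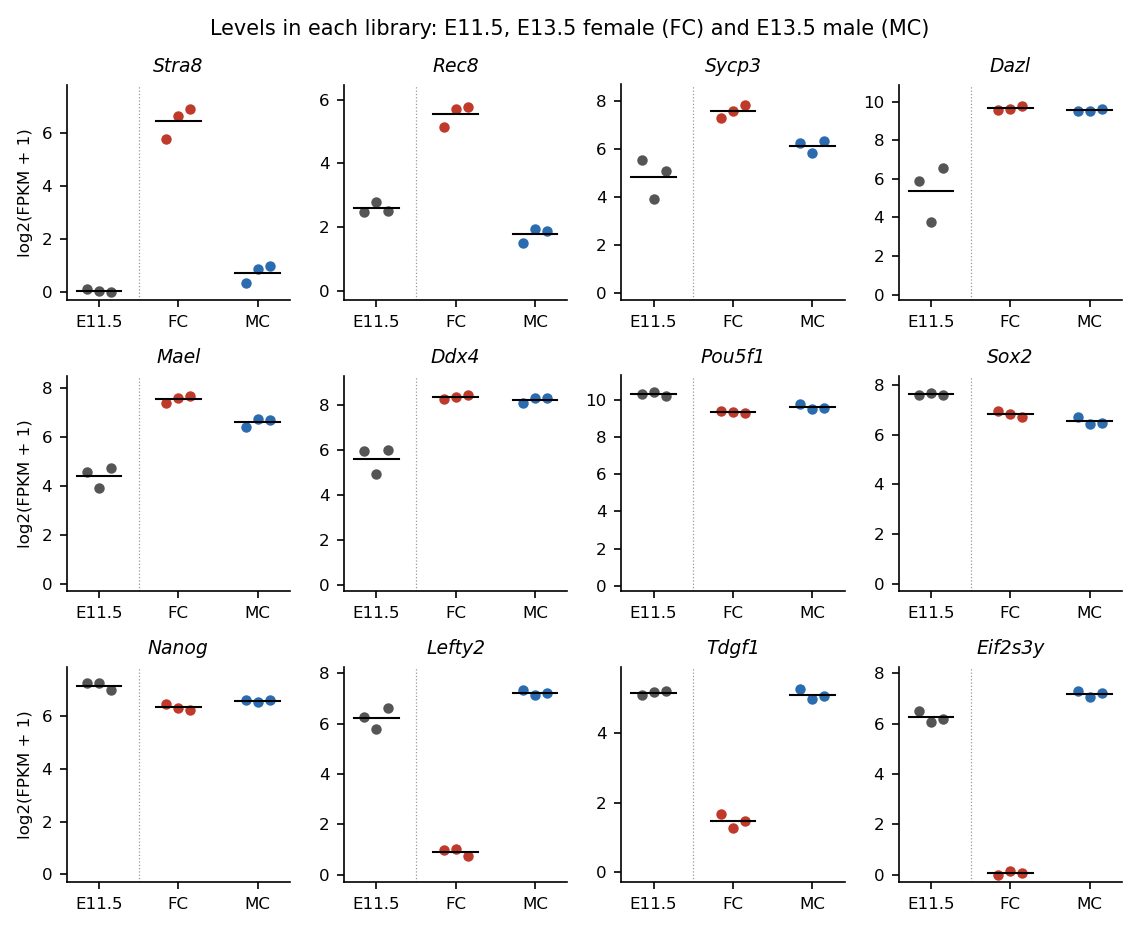
log2(FPKM + 1) of 12 genes in each E11.5 library, each E13.5 female library (FC) and each E13.5 male library coded MC; points are single libraries, bars are means of 3, and the dotted line separates the 2 tables. Stra8 and Rec8 are high in FC only, Dazl and Ddx4 are high in FC and MC, and Lefty2 and Tdgf1 are low in FC only.

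In the BMP and SMAD list 5 of 17 tested members were called higher and 1 lower, beside 6.33% and 4.97% of all genes. The median was 0.60. After adjustment 3 and none were called, with a median of 0.30. Gata2, a transcription factor gene that responds to BMP in germ cells, was found at 5.54, 5.76 and 7.31 FPKM at E11.5 and 40.3, 41.5 and 38.3 FPKM in the E13.5 females, a difference of 2.52 ± 0.11 with the groups apart. The BMP target genes Id1 and Id4 encode inhibitors of helix-loop-helix factors. Id1 stood at 22.9, 19.3 and 35.9 FPKM at E11.5 and 91.5, 97.3 and 102 FPKM in the E13.5 females. Id4 was measured at 3.73, 2.59 and 6.41 FPKM at E11.5 and 18.2, 19.6 and 24.1 FPKM in the E13.5 females, with a gap of 0.95 after adjustment, under the threshold. Bmpr1a, a type I receptor gene, and Smad5, a signal transducer, were higher by 1.42 ± 0.19 and 1.33 ± 0.13, and neither was called after adjustment, with gaps of 0.57 and 0.46. The inhibitory SMAD gene Smad7 was lower, at 15.1, 13.8 and 12.9 FPKM at E11.5 and 4.75, 5.7 and 5.28 FPKM in the E13.5 females.

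Retinoic acid genes were called in 1 of 12 tested members, beside 6.33% higher and 4.97% lower over all genes, and in 2 after adjustment. Without it the call was the receptor gene Rxra, at 2, 2.29 and 1.09 FPKM at E11.5 and 6.57, 6.38 and 5.73 FPKM in the E13.5 females. Of the binding protein genes, Crabp1 stood at 56.1, 68.3 and 60.7 FPKM at E11.5 and 64.5, 62.7 and 69 FPKM in the E13.5 females and overlapped. Crabp2 had values of 7.39, 5.64 and 4.98 FPKM at E11.5 and 13, 12.8 and 13 FPKM in the E13.5 females, apart by 0.72. Of the factors of early oocyte development 2 of 5 tested members were called higher, Sohlh2 and Taf4b, and 3 after adjustment. Taf4b, a TFIID subunit gene, stood at 12.3, 12.7 and 11.1 FPKM at E11.5 and 33.6, 34.9 and 37 FPKM in the E13.5 females and was not called after adjustment. Figla, the activator of zona pellucida genes, was still low, at 0, 0 and 0.595 FPKM at E11.5 and 1.27, 2.26 and 3.35 FPKM in the E13.5 females. Kit, the receptor for stem cell factor, was found at 54.1, 64.6 and 70.7 FPKM at E11.5 and 88.6, 84.4 and 81.5 FPKM in the E13.5 females and was not called.

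Genes of NODAL signalling were lower in 5 of 11 tested members and higher in none, with a median of -0.74. After adjustment, and under each of the other scalings, 5 were lower as well, while rescaling to 1000000 also called 2 higher. Between female and male cells there were 1 higher and 5 lower in FC against MC, and 2 higher and 8 lower against MIR, of 12 tested. Lefty2 and Lefty1 encode secreted inhibitors of NODAL that are also its targets. Lefty2 stood at 75.9, 54 and 96.2 FPKM at E11.5 and 0.957, 1.02 and 0.676 FPKM in the E13.5 females. No library of one day came near the other, and the difference was -5.31 ± 0.25. Lefty1 was measured at 15.1, 17.3 and 19.8 FPKM at E11.5 and 0.386, 0.399 and 0.237 FPKM in the E13.5 females, a difference of -3.77 ± 0.12. Tdgf1, the NODAL co-receptor gene CRIPTO, stood at 33, 35.3 and 36 FPKM at E11.5 and 2.16, 1.42 and 1.77 FPKM in the E13.5 females, a difference of -3.69 ± 0.12.

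Male cells of the same table were high for all 3 genes, with MC means of 149 ± 9.95 FPKM for Lefty2, 64.6 ± 7.15 for Lefty1 and 33.6 ± 3.85 for Tdgf1 (SD, n = 3). The female minus male difference in Lefty2 was -6.32 ± 0.23 against MC (limma adjusted p = 6.53e-09) and -4.58 against MIR (limma adjusted p = 5.23e-08). In Lefty1 it was -5.61 ± 0.19 against MC (limma adjusted p = 2.56e-09) and -4.29 against MIR (limma adjusted p = 2.02e-08). In Tdgf1 it was -3.64 ± 0.20 against MC (limma adjusted p = 1.63e-07) and -2.11 against MIR (limma adjusted p = 4.4e-06). The ligand gene Nodal had values of 13.4, 14.7 and 25.9 FPKM at E11.5 and 3.63, 2.95 and 2.84 FPKM in the E13.5 females, and was lower without overlap. The signal transducer gene Smad2 and the receptor gene Acvr2b were not called, at 12.5, 12.2 and 13.8 FPKM at E11.5 and 27.5, 25.6 and 25.8 FPKM in the E13.5 females and at 11.2, 14.9 and 17 FPKM at E11.5 and 9.89, 9.07 and 9.71 FPKM in the E13.5 females. Foxh1, the DNA-binding partner of SMAD2, was at 75.4, 100.4 and 77.1 FPKM at E11.5 and 49.8, 51 and 48 FPKM in the E13.5 females and was not called.

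Pluripotency genes stayed expressed at E13.5. In the core list 3 of 16 tested members were called lower and none higher, with a median of -0.64; after adjustment 1 was lower and 1 higher. Pou5f1 stood at 1272, 1366 and 1205 FPKM at E11.5 and 668, 654 and 625 FPKM in the E13.5 females. Its groups did not overlap, but the difference between the nearest libraries was -0.85, under the threshold in size, and -0.04 after adjustment. Sox2 was found at 190.4, 207 and 191 FPKM at E11.5 and 124, 112 and 105 FPKM in the E13.5 females. Nanog stood at 148, 148 and 123 FPKM at E11.5 and 85.6, 77.4 and 73.1 FPKM in the E13.5 females. Both were lower in every E13.5 library than in any E11.5 library, as were 31.0% of all genes, and neither was called. Their female minus male differences were 0.30 ± 0.23 against MC (limma adjusted p = 0.338) and 1.26 against MIR (limma adjusted p = 0.000464) for Sox2. For Nanog they were -0.25 ± 0.16 against MC (limma adjusted p = 0.259) and 0.995 against MIR (limma adjusted p = 0.00025), and for Pou5f1 -0.28 ± 0.22 against MC (limma adjusted p = 0.367) and 0.78 against MIR (limma adjusted p = 0.00907).

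Apart from Tdgf1, the core members called lower were Dppa5a, an RNA-binding protein gene of pluripotent cells, and the chromatin factor gene Utf1. Dppa5a was measured at 4451, 3507 and 6909 FPKM at E11.5 and 1687, 1575 and 1389 FPKM in the E13.5 females, and Utf1 at 259, 451 and 429.6 FPKM at E11.5 and 126, 110.0 and 91.6 FPKM in the E13.5 females. Neither was called after adjustment, with gaps of -0.55 and -0.35. Dppa4 overlapped between the days at 217, 199.9 and 243 FPKM at E11.5 and 218, 195 and 203 FPKM in the E13.5 females. In the naive list 2 of 13 were lower, Klf2 and Nr0b1, and the list median was -0.35 but ran from -0.44 to 0.05 over the other scalings, across 0; 1 was lower after adjustment. Nr0b1, an X-linked nuclear receptor gene, stood at 12.6, 13.2 and 9.76 FPKM at E11.5 and 1.05, 0.966 and 1 FPKM in the E13.5 females. Dppa3, a maternal and germ cell factor gene, had values of 1451, 1219.6 and 1862 FPKM at E11.5 and 949, 949 and 967 FPKM in the E13.5 females and was not called.

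Of the genes of germ cell specification 2 of 17 tested members were called higher and 1 lower, and 2 higher and 0 lower after adjustment. The shares over all genes were 6.33% higher and 4.97% lower. Fut4, which makes the SSEA1 antigen, stood at 0.205, 0.227 and 0.573 FPKM at E11.5 and 6.12, 8.05 and 7.94 FPKM in the E13.5 females, a difference of 2.65 ± 0.17. The laminin receptor gene Itga6 was found at 1.03, 2.19 and 1.49 FPKM at E11.5 and 12, 12.3 and 12.6 FPKM in the E13.5 females. Ifitm3, the early germ cell marker fragilis, was lower at 337, 552 and 348 FPKM at E11.5 and 118, 106 and 89.4 FPKM in the E13.5 females, and was not called after adjustment. In the list of KIT, chemokine receptor and adhesion genes 3 of 14 were higher, Fut4, Itga6 and the N-cadherin gene Cdh2, at 1.9, 1.24 and 0.521 FPKM at E11.5 and 7.03, 8.39 and 7.74 FPKM in the E13.5 females. Epcam overlapped between the days.

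**Figure D4:**
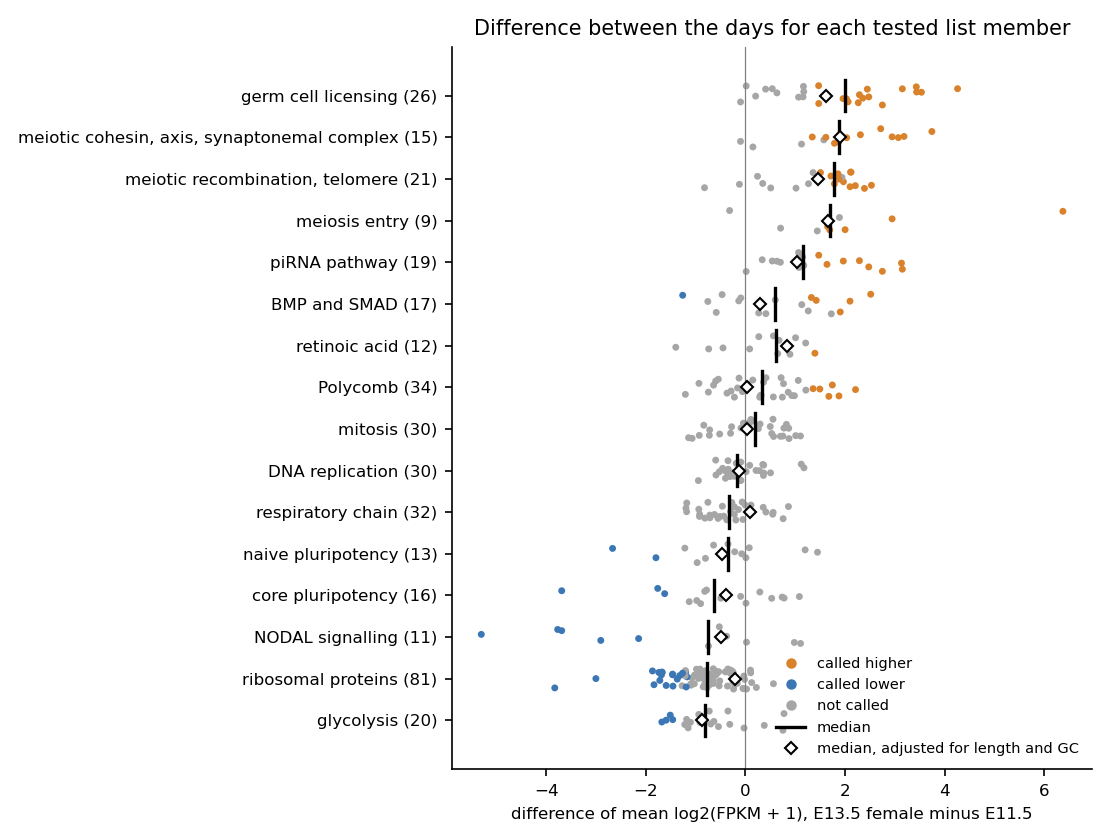
Difference in mean log2(FPKM + 1), E13.5 female minus E11.5, of each tested member (points) of 16 gene lists, with the number tested in parentheses; orange and blue mark genes called higher and lower, bars are list medians and diamonds are medians after adjustment for length and GC content. Medians of the germ cell licensing list (1.99) and the meiosis lists (1.69 to 1.87) lie farthest to the right, and those of glycolysis (-0.82) and ribosomal proteins (-0.78) farthest to the left.

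Glycolysis genes were called lower in 4 of 20 tested members and higher in none, with a median of -0.82, and 4 were also lower after adjustment; none was called when libraries were rescaled to 1000000. The glucose transporter gene Slc2a1 stood at 20.8, 31.1 and 25 FPKM at E11.5 and 8.21, 7.53 and 7.45 FPKM in the E13.5 females. Gapdh was measured at 803, 1032 and 829 FPKM at E11.5 and 334, 331 and 296 FPKM in the E13.5 females, a difference of -1.46 ± 0.13 with the groups apart. The phosphofructokinase gene Pfkl stood at 14.8, 22.8 and 19.7 FPKM at E11.5 and 5.81, 5.44 and 4.42 FPKM in the E13.5 females. Aldoa and Pkm were lower in every E13.5 library without reaching the threshold. Respiratory chain genes had no call among 32 tested members, and their median of -0.34 became 0.09 after adjustment.

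Ribosomal protein genes were lower in 19 of 81 tested members, with a median of -0.78. Between 3 and 23 were lower over the other scalings, and 5 after adjustment, when the median was -0.20. These transcripts are short, and many have near-identical processed copies. Rpl26, named by its wide gap, had values of 331, 359 and 534 FPKM at E11.5 and 14.8, 54.3 and 24.4 FPKM in the E13.5 females and varied among the E13.5 libraries, and the pseudogene Rplp2-ps1 was near 0 in all E13.5 females, so both are uncertain.

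Few cell division genes were called. None of 30 tested DNA replication genes and none of 30 mitosis genes was called, with medians of -0.16 and 0.19; rescaling to 1000000 called 2 and 4 higher. Pcna, the polymerase clamp gene, stood at 706, 676 and 675 FPKM at E11.5 and 493, 488 and 515 FPKM in the E13.5 females, and the mitotic cyclin gene Ccnb1 at 283, 259 and 261 FPKM at E11.5 and 282, 294 and 299 FPKM in the E13.5 females. Among regulators of the G1 phase 2 of 21 were higher and 2 lower, beside 6.33% and 4.97% of all genes, and 3 and 2 after adjustment. Rb1, the retinoblastoma gene, was found at 11.1, 11.3 and 9.68 FPKM at E11.5 and 43.4, 43.7 and 42.2 FPKM in the E13.5 females, and the cyclin gene Ccnd1 at 1.94, 1.57 and 0.529 FPKM at E11.5 and 9.37, 13.1 and 13.47 FPKM in the E13.5 females. Cdk4, the kinase gene partner of D cyclins, was lower at 444, 493 and 456 FPKM at E11.5 and 158, 151 and 143 FPKM in the E13.5 females, and Ccnd3 differed by -1.49 ± 0.20.

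Polycomb genes were called higher in 6 of 34 tested members and lower in none, beside 6.33% and 4.97% of all genes. Their median was 0.34. After adjustment 4 were higher and 2 lower, beside 485 and 381 of all 10697 genes, and the median was 0.03. Cbx8, a chromobox reader of H3K27 methylation, stood at 0.298, 0.0412 and 0.556 FPKM at E11.5 and 4.63, 5.17 and 5.02 FPKM in the E13.5 females, a difference of 2.21 ± 0.17. The repressive complex gene Bmi1 was measured at 15.4, 11.3 and 17 FPKM at E11.5 and 50.9, 47.2 and 53.9 FPKM in the E13.5 females. Kdm2b, which recruits the variant complex to CpG islands, stood at 17.1, 17.3 and 21.9 FPKM at E11.5 and 65.3, 61.2 and 59 FPKM in the E13.5 females. Mga, a subunit of the variant complex that holds germline genes silent, had values of 14.3, 12.1 and 9.56 FPKM at E11.5 and 35.8, 33.5 and 36.5 FPKM in the E13.5 females, but its gap was under the threshold after adjustment, at 0.27. Ezh2, the H3K27 methyltransferase gene, was not called, at 79.5, 84 and 88.3 FPKM at E11.5 and 108, 113 and 114.9 FPKM in the E13.5 females.

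Among H3K9 and heterochromatin genes 3 of 19 tested members were higher, Ehmt1, Setdb2 and Suv39h1, all histone methyltransferase genes. Suv39h1 stood at 26.1, 25.9 and 24.4 FPKM at E11.5 and 61.1, 62.4 and 62.6 FPKM in the E13.5 females and was the one of them also called after adjustment. Of 15 DNA methylation genes 1 was lower, Mbd3, at 159.6, 201 and 181 FPKM at E11.5 and 68.1, 65.2 and 60.0 FPKM in the E13.5 females, and its gap was -0.52 after adjustment. Dnmt1, the maintenance methyltransferase gene, was not called, at 64.1, 75.9 and 66.2 FPKM at E11.5 and 106, 108 and 90.2 FPKM in the E13.5 females. Of 30 tested imprinted genes 2 were higher, Plagl1 and Asb4, and after adjustment 3 were higher and 1 lower. Since 6.33% of all genes were called higher and 4.97% lower, the imprinted count was near the general share. Plagl1, a zinc finger gene, was found at 1.93, 1.4 and 1.71 FPKM at E11.5 and 21.3, 18.2 and 19.7 FPKM in the E13.5 females, and its female minus male difference was 3.02 ± 0.18 against MC (limma adjusted p = 4.41e-07) and 1.98 against MIR (limma adjusted p = 4.05e-06).

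DNA damage and checkpoint genes had 3 of 21 tested members called higher and 2 lower, and 1 higher and 2 lower after adjustment. The kinase gene Atr stood at 19.9, 14.8 and 14.2 FPKM at E11.5 and 65.9, 69.5 and 76.7 FPKM in the E13.5 females, and was also called after adjustment. Atm was measured at 9.4, 6.88 and 7.54 FPKM at E11.5 and 25.3, 22.8 and 25.7 FPKM in the E13.5 females, with a gap of 0.45 after adjustment. H2afx, which encodes the histone that is phosphorylated at DNA breaks, was lower at 186, 323 and 299 FPKM at E11.5 and 49.9, 52.9 and 45.6 FPKM in the E13.5 females. Trp53 was not called, at 98.9, 179 and 177 FPKM at E11.5 and 82.6, 75.7 and 65.5 FPKM in the E13.5 females. Of 26 Fanconi and homologous recombination genes 1 was called higher, Brca2, and none after adjustment. Over all genes 6.33% were called higher and 4.97% lower.

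Pro-apoptotic BCL2 family genes were lower in 3 of 10 tested members, Bad, Bax and Bak1, and 1 of them, Bad, after adjustment. Bad stood at 23.7, 28.3 and 40.1 FPKM at E11.5 and 5.8, 6.07 and 5.85 FPKM in the E13.5 females. Bax had values of 295, 322 and 384 FPKM at E11.5 and 141, 135.03 and 137 FPKM in the E13.5 females. None of 7 anti-apoptotic genes was called. Of 16 immediate early genes 1 was higher and 2 lower: Fos stood at 6.97, 5.37 and 8.43 FPKM at E11.5 and 33.5, 67.2 and 59.7 FPKM in the E13.5 females, while Ier3 was found at 18.2, 31.7 and 24.5 FPKM at E11.5 and 2.26, 1.97 and 1.57 FPKM in the E13.5 females. Of 9 interferon and IFITM genes 1 was higher, the RNA sensor gene Ddx58, and 1 was lower, Ifitm3. Beside these small counts, 6.33% of all genes were called higher and 4.97% lower.

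The male germline list had 3 of 22 tested members higher, among them Mov10l1, and 5 lower, among them Nodal, Lefty1, Lefty2 and Tdgf1. Over all genes 6.33% were called higher and 4.97% lower. Y-linked genes of the sex check were lower in 4 of 4 tested, as Ddx3y shows at 10.9, 7.37 and 7.59 FPKM at E11.5 and 0.0122, 0 and 0 FPKM in the E13.5 females, and Kdm5d and Uty were listed at 0 in all E13.5 females. Uba1y, another Y-linked gene, stood at 27.1, 19.2 and 27.7 FPKM at E11.5 and 0, 0 and 0.0527 FPKM in the E13.5 females. Xist, the RNA that coats the inactive X chromosome, was measured at 1.09, 0.495 and 0.62 FPKM at E11.5 and 1.84, 1.2 and 2.35 FPKM in the E13.5 females and was not called.

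The X chromosome held 418 tested genes with coordinates, of which 17.9% were called higher, against 5.84% of 10274 autosomal genes. Its median difference was 0.65, against 0.08 for autosomes, and 0.50 against -0.02 after adjustment. Within the E13.5 table the female minus MC median was 0.53 over X-linked and -0.04 over autosomal genes, and the female minus MIR median was 0.50 and 0.06. Among X-linked germline genes 4 of 14 tested members were called higher and none lower, and 5 higher after adjustment. Taf7l, a germ cell TFIID subunit gene, stood at 1.19, 1.81 and 3.77 FPKM at E11.5 and 20.0004, 41.6 and 50.4 FPKM in the E13.5 females, a difference of 3.54 ± 0.51. Usp26, a ubiquitin protease gene, was higher by 2.19 ± 0.18. The homeobox genes Rhox5, Rhox6 and Rhox9 were abundant at both days and were not called, with Rhox5 at 819, 732 and 1266 FPKM at E11.5 and 738, 721 and 693 FPKM in the E13.5 females.

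Other genes with the widest upward gaps were Cited1, Lonrf2, Scml2, Adam22, Bend4, Pnck, Larp1b and Cubn. Cited1, a transcriptional coactivator gene, had values of 0.589, 0.345 and 1.02 FPKM at E11.5 and 19.3, 24.7 and 27.7 FPKM in the E13.5 females, a difference of 3.92 ± 0.22. Its female minus male difference was 2.15 ± 0.50 against MC (limma adjusted p = 0.00539) and -1.28 against MIR (limma adjusted p = 0.0402), so its sign depends on the male set. Cubn, the gene of the endocytic receptor cubilin, stood at 0.154, 0.15 and 0.156 FPKM at E11.5 and 5.56, 6.26 and 6.06 FPKM in the E13.5 females. Scml2, an X-linked Polycomb gene of the germ line, was found at 4.86, 1.92 and 5.71 FPKM at E11.5 and 39.3, 44.5 and 52.1 FPKM in the E13.5 females. Lonrf2, Adam22, Bend4, Pnck and Larp1b differed by 3.16 ± 0.14, 2.68 ± 0.05, 2.74 ± 0.12, 2.86 ± 0.15 and 3.26 ± 0.30, in that order. These errors hold only the spread among libraries. After adjustment for length and GC content Adam22 and Bend4 differed by 1.78 and 1.94, and both were still called.

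Sfn, the gene of the checkpoint protein 14-3-3 sigma, was among the widest downward gaps, at 17.4, 22.7 and 25.7 FPKM at E11.5 and 2.18, 1.46 and 2.03 FPKM in the E13.5 females, and the LIM protein gene Crip2 at 86.1, 118 and 91.1 FPKM at E11.5 and 14.2, 12 and 9.99 FPKM in the E13.5 females. The histone gene Hist1h2bc differed by -2.88 ± 0.14. Eif3j2 and Ndufs5 also had wide downward gaps, and both are uncertain: Eif3j2 shares a joined entry with Eif3j1 at E11.5, and Ndufs5, a respiratory chain gene, stood at 78.9, 94.1 and 81.1 FPKM at E11.5 and near 0 in all E13.5 females.

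Markers of other cell types were low at both days, apart from blood cell genes at E11.5 and a few genes such as Vim and Aard. Summed FPKM of the 9 erythroid genes was 305, 1.87 and 379 at E11.5 and 32.2, 23.7 and 35.1 in the E13.5 females, so that E11.5 replicates 1 and 3 carried globin transcripts and replicate 2 did not. Summed FPKM of the 13 macrophage genes was 22, 87.5 and 36.8 at E11.5 and 17.9, 23.9 and 21.3 in the E13.5 females, highest in E11.5 replicate 2. That library was also the lowest of its group for Dazl, Ddx4, Sycp3 and Dppa3. It was the highest of its group for the germ cell genes Pou5f1, Sox2, Dnd1, Prdm1 and Tfap2c. Over the licensing list its mean log2(FPKM + 1) was the lowest, at 3.49 against 3.87 and 4.09 in replicates 1 and 3. It was also the lowest over the meiotic axis (3.47 against 3.90 and 4.01), piRNA, recombination and meiosis entry lists. Over germ cell specification it was the highest, at 5.56 against 5.22 and 5.48. Over core pluripotency it lay between the others, at 5.74 against 5.63 and 5.81. The part of macrophages in the low values was not tested. No erythroid or macrophage member was called with all libraries. Without E11.5 replicate 2, 3 of 4 tested erythroid genes were called lower at E13.5. In that run 802 genes were called higher and 631 lower.

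For 12 pregranulosa genes the summed FPKM was 17.4, 14.4 and 20.02 at E11.5 and 31, 27.6 and 30.5 in the E13.5 females, and for 15 Sertoli genes it was 42.8, 32 and 33.1 at E11.5 and 27.3, 29.4 and 28.4 in the E13.5 females. For 16 supporting cell genes it was 69.9, 73.4 and 60.3 at E11.5 and 98, 95.5 and 87.1 in the E13.5 females. It was 73.4, 61.5 and 65.9 at E11.5 and 71.9, 62.9 and 67.7 in the E13.5 females for 16 mesenchymal genes and 24.2, 35.4 and 26.6 at E11.5 and 9.39, 8.6 and 8.4 in the E13.5 females for 12 endothelial genes. It was 11.4, 14 and 14.3 at E11.5 and 3.7, 2.83 and 5.45 in the E13.5 females for 9 steroidogenic genes and 15.9, 15.9 and 15.7 at E11.5 and 21.6, 19 and 21 in the E13.5 females for 11 epithelial genes. Some of these sums came mostly from 1 gene. Of the Sertoli sum, Aard gave 40.0, 30.1 and 31.2 at E11.5 and 25.7, 26.8 and 26.3 in the E13.5 females. Of the mesenchymal sum, Vim gave 50.8, 48.0 and 60.5 at E11.5 and 57.6, 51.2 and 51.7 in the E13.5 females. Ctnnal1 was the largest part of the pregranulosa sum in every library. Supporting cell genes had 1 member called higher and 1 lower (Nr0b1), and pregranulosa genes 1 higher. Other called members were Gata3 (higher) and Krt7 (lower) for epithelium, Egfl7 (lower) for endothelium and Insl3 (lower) for steroidogenic cells. Egfl7 overlaps Agpat2 on the opposite strand, and Insl3 overlaps Jak3 on the same strand, so both are uncertain. In the E13.5 table Sertoli genes were lower in FC than in MC in 7 and than in MIR in 14 of 14 tested, and their part in the female minus male counts was not tested. Fewer cells of a type and less RNA per cell cannot be told apart in such bulk samples. Among genes with printed values, Sycp3, Zcwpw1, Psmc3ip, Syce2, Cdk4, Gapdh, Bad, Rb1, Kdm2b and Ccnd3 overlap another tested gene on the opposite strand, and Sox2 overlaps Sox2ot on the same strand; whether fragments were counted by strand is not given.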

How the data were processed

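Total RNA of purified primordial germ cells was depleted of ribosomal RNA and made into libraries with the NEBNext Ultra II kit, per the labels' protocols. The authors deposited FPKM per gene symbol, in 1 table for E11.5 and 1 for E13.5, per the file headers. Per the submitters' processing notes the build was mm10 and DESeq2 was among the tools. Neither aligner, counter nor gene annotation is given in the sources used here.

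Groups follow the sample titles, except for the male libraries, which are named by code. Symbols found once in each table were joined, and genes with 1 FPKM or more in at least 3 of 6 libraries were kept. Values were compared as log2(FPKM + 1). Errors of a difference are standard errors from the SDs of 3 and 3 libraries. The test within the E13.5 table used limma 3.58.1 with a mean-variance trend over 12 libraries and 4 groups, with Benjamini-Hochberg adjustment and a threshold of 0.05; it was checked on simulated data with known changes. Transcript length and GC content came from GENCODE M21 on GRCm38 and were adjusted for by lowess with a span of 0.3.

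Members and the 40 gene lists were chosen with earlier results of these data known, and list counts support nothing by themselves. Named genes were the 15 with the widest gap in each direction (without small RNA, predicted or joined symbols), up to 6 called and 3 uncalled members per list, and a fixed set of germ cell and sex genes. A few genes that this rule names, or that lists hold, are not reported here.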

Additional observations from a re-analysis of the deposited data

Results flagged for a closer look

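The results named here were picked among the genes with the widest gaps between the days and the genes always named. In each, female and male MC libraries of the E13.5 table differed in limma by 3 or more on the log2(FPKM + 1) scale. That size was set after the data were seen. All values below are female minus MC, 3 libraries each.

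Meiotic genes were higher in females. Stra8 differed by 5.70 (limma adjusted p = 6.64e-07), and Rec8 by 3.76 (limma adjusted p = 7.38e-08). The imprinted gene Plagl1 differed by 3.02 (limma adjusted p = 4.41e-07). Against MIR these 3 differences were 6.10, 3.06 and 1.98.

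NODAL genes were lower in females. Lefty2 differed by -6.32 (limma adjusted p = 6.53e-09), Lefty1 by -5.61 (limma adjusted p = 2.56e-09) and Tdgf1 by -3.64 (limma adjusted p = 1.63e-07). Against MIR these 3 differences were -4.58, -4.29 and -2.11.

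Y-linked genes were at or near 0 in females, so their differences give no fold. Eif2s3y differed by -7.13, Uba1y by -6.60, Uty by -3.22, Ddx3y by -3.15 and Kdm5d by -3.04, with limma adjusted p from 3.28e-12 to 3.94e-07. Against MIR these 5 differences were -6.70, -5.56, -3.49, -4.38 and -3.61.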

How the results depend on the processing

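Counts of genes higher and lower at E13.5 (722 and 567) became 1668 and 263 when libraries were rescaled to 1000000, and 1653 and 256 when small RNA, histone, mitochondrial and globin genes were left out first. A gap of 4-fold gave 67 and 66, and a mean difference of 2-fold without overlap gave 1422 and 1175. Without 1 E11.5 library some list counts moved by over 1.5 times: piRNA genes from 8 to 13 higher without replicate 3, erythroid genes from 0 to 3 lower without replicate 2, and, without replicate 1, Fanconi genes from 1 to 3 higher, interferon genes from 1 to 3 lower and respiratory chain genes from 0 to 2 lower; other such moves, some without an E13.5 library, were of 1 gene. Adding the 2 irradiated E11.5 libraries gave 400 and 337; this and the adjustment for length and GC content were chosen after the data were seen. The same 2 counts were within 1.5 times of the main ones with pseudocounts of 0.1 and 0.5, without a filter, at a minimum of 5 FPKM, and after quantile, median and upper-quartile scaling. Leaving out 1 library gave 759 to 929 higher and 595 to 767 lower; a gap between nearest libraries cannot shrink when a library is left out, and these runs asked for 1 FPKM in 2 libraries instead of 3, a choice made after the first counts were seen. Of the 213 named genes that could be adjusted for length and GC content, of 216, 27 lost and 7 gained a call, and in none of these runs did a called gene change direction or an uncalled one pass the threshold against its main direction.

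Female minus male counts (2070 and 2419) became 3776 and 4052 against MIR, and 1425 to 1675 and 1719 to 1975 without 1 library. A fit of FC and MC alone gave 2831 and 3314 of 11374 genes. Among genes named by the widest gaps or always named, with an adjusted p under 0.05 against either male set, the sign turned against MIR for Brdt (1.66), Cited1 (-1.28), Hist1h2bc (-1.55), Kit (1.34), Nanog (0.995) and Pou5f1 (0.78), and the cause was not tested. With the replicate number as a replicate block the counts were 2103 and 2411; deviations of same-numbered FC and MC libraries correlated at 0.088, 0.045 and -0.051, so the numbers do not pair the libraries. Between the days, no paired analysis was possible because no test is made across the tables.

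Depth is unknown, no p-value exists between the days, and day, table and sex make-up cannot be told apart.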

Other observations

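Lefty1, among the genes with the widest downward gaps, has Tmem63a as its next neighbour on chromosome 1 in the GENCODE M21 annotation of GRCm38. Both are on the plus strand, Lefty1 (chr1:180935022-180938400) before Tmem63a (chr1:180942344-180975112). Tmem63a, a membrane channel gene looked up after the values of Lefty1 were seen, was lower as well, at 6.85, 5.36 and 4.63 FPKM at E11.5 and 0.925, 0.644 and 0.59 FPKM in the E13.5 females, a difference of -1.93 ± 0.16. Its female minus MC difference was -3.37 (limma adjusted p = 6.7e-08), and its female minus MIR difference was -2.72 (limma adjusted p = 2.19e-07). Both neighbours were thus lower in females in both comparisons, which share the female libraries. Ephx1, beyond Tmem63a and on the minus strand, stood at 1.82, 1.95 and 0 FPKM at E11.5 and 1.04, 0.86 and 1.09 FPKM in the E13.5 females and was not called. Ephx1 was nevertheless lower in females than in males. Its female minus MC difference was -0.41 (limma adjusted p = 0.0126), and its female minus MIR difference was -3.11 (limma adjusted p = 4.45e-09). Whether fragments were counted by strand is not given, and no reason for the shared direction was tested.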
